A study of Mus musculus with 15 samples.

Results

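The genes described here encode the receptors that sense glutamate in the striatum and the proteins that anchor and traffic those receptors at the synapse. There were 39 of them among the 45777 features of the deposited tables, chosen by gene symbol and not by any measured value: 4 AMPA receptor subunits, 6 NMDA receptor subunits, 5 kainate receptor subunits, 1 delta receptor, 6 metabotropic receptors, 4 membrane-associated guanylate kinase (MAGUK) scaffolds, 3 Shank and 3 Homer scaffolds, 5 transmembrane AMPA receptor regulatory proteins (TARPs) and 2 cornichon proteins. RNA was sequenced from the striatum of wild-type male ICR mice aged 7 weeks, in the first (F1) and second (F2) generation after a treated male founder. The founders, aged 6 weeks at the start, had been given methamphetamine (METH) at 5 mg/kg or saline at 10.0 mL/kg under the skin on 21 days in a row, before mating with females that got no drug. The labels name no drug given to the descendants themselves, and the 4 groups, named for the founder's treatment, were saline F1 mice (n = 4), METH F1 mice (n = 3), saline F2 mice (n = 4) and METH F2 mice (n = 4). Within a generation each library carries its own animal code. Some codes recur in F1 and F2, and the labels do not say whether this marks descent, nor how many sires or litters stand behind a group, so the p-values measure the spread between these libraries.

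Excitatory input from cortex and thalamus reaches the spiny projection neurons of the striatum through glutamate synapses. AMPA receptors carry most of the fast current, NMDA receptors admit calcium and set the conditions for plasticity, kainate receptors modulate both sides of the synapse, and metabotropic receptors act through G proteins. Under the membrane, MAGUK proteins such as PSD-95 bind the receptors, and Shank and Homer proteins link this layer to metabotropic receptors and the cytoskeleton. TARPs and cornichons are auxiliary proteins that carry AMPA receptors to the surface and shape their gating.

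Library totals ran from 31563806 to 50573906 counts. Every gene of the set had reads in every library, from 37 counts at the lowest, for Grm2, and all 39 passed the filter on low counts in both generations. All 16 spiny projection neuron markers were detected, with summed levels of 7371 to 12879.6 TPM (a unit scaled to transcript length and library size), so the labelled tissue was present in each library; the labels call the cell type neuronal, but 10 oligodendrocyte markers summed to between 6594 and 13168 TPM. Markers of cortical excitatory neurons varied to unlike degrees. CPM (counts scaled to library size) of Slc17a7, the vesicular glutamate transporter of cortical neurons, ran from 9.47 to 525.8. It exceeded 100 in 3 libraries of F1 (saline replicates 1 and 3, METH replicate 3) and 2 of F2 (saline replicate 4, METH replicate 2). Tbr1 ran from 0.548 to 33.9 TPM, whereas Lamp5 ran from 105 to 136, Lmo3 from 96.1 to 153 and Nrgn from 1420 to 2430. The cortical marker mean used below holds markers of both kinds. In bulk tissue, a larger share of cells and more RNA per cell cannot be told apart.

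In these striata the scaffold gene Dlg4, which encodes PSD-95, had the highest level of the set, at 903 TPM ± 111 (SD, n = 15). Next came Grin1, the obligatory NMDA receptor subunit, at 432 TPM ± 44.1, and Cnih2, at 315 TPM ± 30.6. Levels spanned a wide range, with 19 of the 39 genes above 50 TPM and 4 under 5 TPM. The lowest were Grik1 at 2.85 TPM ± 1.37, Grm8 at 2.86 ± 0.576, Grm2 at 3.53 ± 4.11 and Homer2 at 4.93 ± 1.16. Most neighbours in the order of levels changed places between libraries: 4 of the 38 neighbouring pairs (Dlg4 over Grin1, Grin1 over Cnih2, Gria2 over Cacng3 and Grin2c over Grin2a) stood in the same order in all 15 libraries. The F1 and F2 levels came from tables normalized separately, and no test of generation was made.

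**Figure D1:**
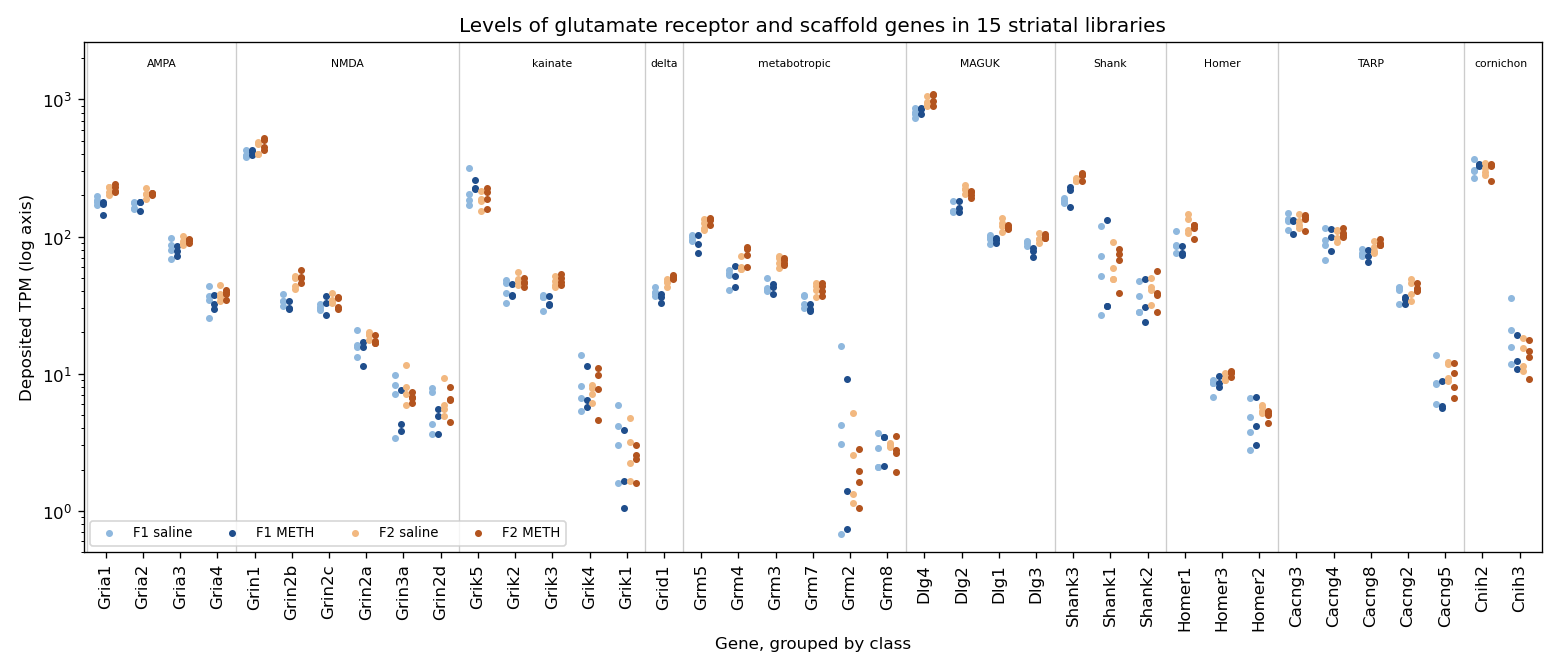
Deposited TPM (log axis) of the 39 glutamate receptor and scaffold genes in each of the 15 libraries, 1 point per library, coloured by group and ordered by level within each class. Dlg4 stands highest, Grin1 exceeds the other NMDA subunits in every library, and Grm2, Grik1 and Shank1 show the widest spreads.

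Among the AMPA receptor genes, Gria1 and Gria2 (the subunit that limits calcium entry) stood at nearly the same level, 199.6 TPM ± 27.3 and 188 TPM ± 21.1, and made up 39% ± 2.70 and 36.8% ± 1.58 of the class sum (SD, n = 15). Gria3 gave 17.1% and Gria4 7.12%. Gria1 read 179, 196, 171 and 185 TPM in F1 saline replicates 1 to 4, 179.9, 173 and 145 in F1 METH replicates 1 to 3, 200.04, 231, 213 and 228 in F2 saline and 215, 211, 242 and 228 in F2 METH. The METH and saline ranges overlapped in each generation.

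The NMDA receptor class was dominated by Grin1, at 80.6% ± 1.79 of the summed TPM. Of the regulatory subunits, Grin2b (41.5 TPM ± 9.10) exceeded Grin2c (32.7 ± 3.24) and Grin2a (17.1 ± 2.50) on average, while Grin3a (6.93 ± 2.16) and Grin2d (5.89 ± 1.69) were scarce. By group, Grin2b averaged 34.3 TPM in F1 saline, 31.2 in F1 METH, 46.8 in F2 saline and 50.9 in F2 METH. In F1 METH the Grin2c mean, 32.2 TPM, was the higher of the 2. Grin1 read 388, 383, 392 and 430.4 TPM in F1 saline, 427, 396 and 412 in F1 METH, 399.6, 470.0, 399 and 485 in F2 saline and 428, 502, 521 and 449.6 in F2 METH, again with overlapping groups. An antisense gene, Grin1os, covers 13.5% of its exon bases, and without strand its reads cannot be told apart from those of Grin1.

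Grik5, a high-affinity kainate subunit that works only with other subunits, supplied 67.7% ± 5.75 of the kainate sum, against 14.8% for Grik2 and 13.8% for Grik3; Grik4 and Grik1 supplied 2.68% and 0.964%. Its TPM was 169, 206, 186 and 316 in F1 saline, 259, 223 and 225 in F1 METH, 153, 216, 181 and 189 in F2 saline and 158, 227, 211 and 187 in F2 METH, and F1 saline replicate 4 stood well above the other F1 saline libraries. Grid1, the delta receptor that bridges synapses through secreted partners, read 38.6, 42.6, 39.2 and 37.1 TPM in F1 saline, 37.9, 36.1 and 32.7 in F1 METH, 46.6, 48.9, 43.2 and 46.5 in F2 saline and 49.7, 51.1, 52.8 and 49.0 in F2 METH. On this scale the lowest F2 METH value, 49.0, lay just above the highest F2 saline value, 48.9, whereas the CPM given below overlapped.

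Grm5, the Gq-coupled metabotropic receptor of spiny projection neurons, led its class with 41.0% ± 2.22 of the sum. It was followed by Grm4 (22.4%), Grm3 (20.3%) and Grm7 (13.9%), receptors coupled to inhibitory G proteins, and Grm2 and Grm8 contributed 1.43% and 1.08%. Grm5 read 102, 98.5, 92.2 and 94.9 TPM in F1 saline, 88.3, 103 and 76.5 in F1 METH, 112, 125, 116 and 133 in F2 saline and 136, 121, 132 and 134 in F2 METH, with overlap in each generation.

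Among the scaffolds, Dlg4 made up 69.9% ± 1.37 of the MAGUK sum, ahead of Dlg2 (14.6%), Dlg1 (8.39%) and Dlg3 (7.15%). Its levels were 871, 730.5, 777 and 808 TPM in F1 saline, 850.3, 777 and 859.6 in F1 METH, 931, 1052, 955 and 897 in F2 saline and 899, 1071, 1094 and 972 in F2 METH. Shank3, the Shank protein abundant in striatum and tied to repetitive behaviour in mice, held 69.8% ± 8.31 of its class, but this share ran from 51.3% to 79.1% as Shank1 (18.9% on average) varied from 26.8 to 132 TPM; Shank2 gave 11.3%. Homer1 held 87.7% ± 2.15 of the Homer sum, Homer3 7.99% and Homer2 4.30%. Homer1 read 109, 84.8, 86.9 and 76.1 TPM in F1 saline, 75.4, 85.5 and 73.8 in F1 METH, 111, 146, 135 and 106 in F2 saline and 115, 95.9, 121 and 121 in F2 METH. Dlg4 and Homer1 overlapped between METH and saline in both generations, and 25.4% of the Homer3 exon bases are shared with Ddx49, so Homer3 levels are uncertain.

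The TARP class was more even: Cacng3 supplied 36.0% ± 2.65, Cacng4 27.7%, Cacng8 22.6%, Cacng2 (stargazin) 11.2% and Cacng5 2.54% of the sum. Cacng3 read 133, 111, 129.9 and 149 TPM in F1 saline, 132, 129.5 and 105 in F1 METH, 116, 147, 129.9 and 121 in F2 saline and 111, 138, 144 and 134 in F2 METH. Cnih2 held 95.2% ± 1.87 of the cornichon sum, at 299, 266, 304 and 368 TPM in F1 saline, 329, 337 and 329.9 in F1 METH, 282, 298, 318 and 342 in F2 saline and 336, 335, 255 and 327 in F2 METH. Neither gene separated METH from saline libraries in either generation.

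In F1, none of the 39 genes differed between METH and saline mice past the threshold (edgeR quasi-likelihood test, Benjamini-Hochberg adjusted p under 0.05; smallest adjusted p of the set 0.994), and of all 18499 genes tested 0% did. At an unadjusted p under 0.05 the set had 0 genes, against 4.18% of all genes. The log2 fold change was below 0 for 21 of the 39 and above 0 for 18, where 50.9% of all genes lay below 0. The median was -0.03 against -0.0035 over all genes, and the values ran from -0.74 (Grik1) to 0.27 (Grik5). No gene had every METH library above every saline library, as 3.08% of all genes had, and 1 gene, Dlg3, had every METH library below, as 2.42% had.

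Dlg3 encodes SAP102, the MAGUK that binds NMDA receptors early in development (X chromosome, 100767411 to 100818410, plus strand, GRCm38.p6). Its CPM was 186, 179, 181 and 178 in F1 saline replicates 1 to 4 and 169.8, 171 and 147 in F1 METH replicates 1 to 3. All 3 METH libraries were lower, although METH replicates 1 and 2 lay close under the saline range; the log2 fold change was -0.15 (SE 0.0765, adjusted p = 0.994). Without the F1 libraries with Slc17a7 above 100 CPM it was -0.07.

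Shank3 (chromosome 15, 89493013 to 89560261, plus strand) had the smallest p of the set in F1, with a log2 fold change of 0.25 (SE 0.122, adjusted p = 0.994). It read 687, 548, 515 and 643 CPM in F1 saline and 775, 639.9 and 721 in F1 METH. METH replicate 2 lay below saline replicates 1 and 4, so the groups overlapped. Leaving out the libraries with high Slc17a7 gave 0.25 and taking the cortical marker mean as a covariate gave 0.24.

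Kainate receptor genes held the highest and the lowest fold change of F1, and neither passed the test. Grik5 read 373, 364, 383 and 567 CPM in saline and 583, 459.8 and 479 in METH, a log2 fold change of 0.27 (SE 0.169); saline replicate 4 lay above 2 of the 3 METH libraries. Grik1, the low-abundance subunit GluK1, read 5.74, 7.74, 10.6 and 3.14 CPM in saline and 3.37, 2.06 and 6.76 in METH, a log2 fold change of -0.74 (SE 0.473). Saline replicate 4, the library with the lowest cortical marker mean of its group, was the highest saline library for Grik5 and the lowest for Grik1, and for Grik1 METH replicates 1 and 3 lay within the saline range.

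Of the AMPA receptor auxiliary genes, Cnih3 read 23.8, 22.6, 39.1 and 15.6 CPM in F1 saline and 15.3, 14.4 and 23.5 in F1 METH (log2 fold change -0.51, SE 0.299). Cacng2 read 85.4, 81.1, 83.4 and 68.0 CPM in saline and 70.1, 75.5 and 71.4 in METH (log2 fold change -0.14, SE 0.0907). In both genes saline replicate 4 was the lowest of its group; it lay within the METH range for Cnih3 and below all 3 METH libraries for Cacng2. Beside these values, 14 of 17 cortical excitatory markers were below 0 (median -0.31), with summed levels of 1928 to 3166 TPM in F1 saline and 2159 to 2787 in F1 METH. Most of each sum was Nrgn, at 1420 to 2430 TPM over the 15 libraries. Nrgn lay above 0 in F1 (0.24, SE 0.141), so the sums mainly follow it and not the 14 markers. All 10 oligodendrocyte markers were above 0 (median 0.28), with sums of 6594 to 7506 TPM and 6595 to 9839.9 TPM. Of the spiny projection neuron markers, 14 of 16 were above 0 (median 0.13), with sums of 7371 to 11147.5 TPM and 8594 to 12109 TPM. Above 0 were also 8 of 10 astrocyte (median 0.18), 7 of 8 microglia (median 0.19) and 6 of 8 endothelial markers (median 0.16). No marker of these 6 lists was at 0 in every library of a group, and 0 passed the adjusted threshold; at an unadjusted p under 0.05 were 4 oligodendrocyte, 4 endothelial, 2 astrocyte and 0 cortical, spiny projection neuron or microglia markers. Their part in the values of the set was not tested beyond the covariate values that follow. Of all genes tested in F1, 4.18% were at an unadjusted p under 0.05 and 50.9% lay below 0. The other genes beyond 0.2 in either direction in F1 were Grm2 at -0.62 (SE 1.03), Cacng5 at -0.42 (SE 0.288), Grin3a at -0.39 (SE 0.341), Grin2d at -0.29 (SE 0.265) and Grm8 at 0.25 (SE 0.239), each within 1.5 standard errors of 0. The Grm2 value rested on single libraries: it was 0.52 without F1 saline replicate 3, -2.41 without F1 METH replicate 3 and -0.76 without the libraries high in Slc17a7. The 4 AMPA receptor genes stood between -0.09 (Gria1, SE 0.111) and 0.07 (Gria2, SE 0.0822), and the other 3 MAGUK genes between 0.01 (Dlg1, SE 0.0700) and 0.11 (Dlg4, SE 0.0966). With the cortical marker mean as a covariate, Grik1 was at -0.61, Cnih3 at -0.35, Grm2 at -0.16 and Dlg3 at -0.17, and no gene of the set passed the adjusted threshold (smallest adjusted p 0.706).

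**Figure D2:**
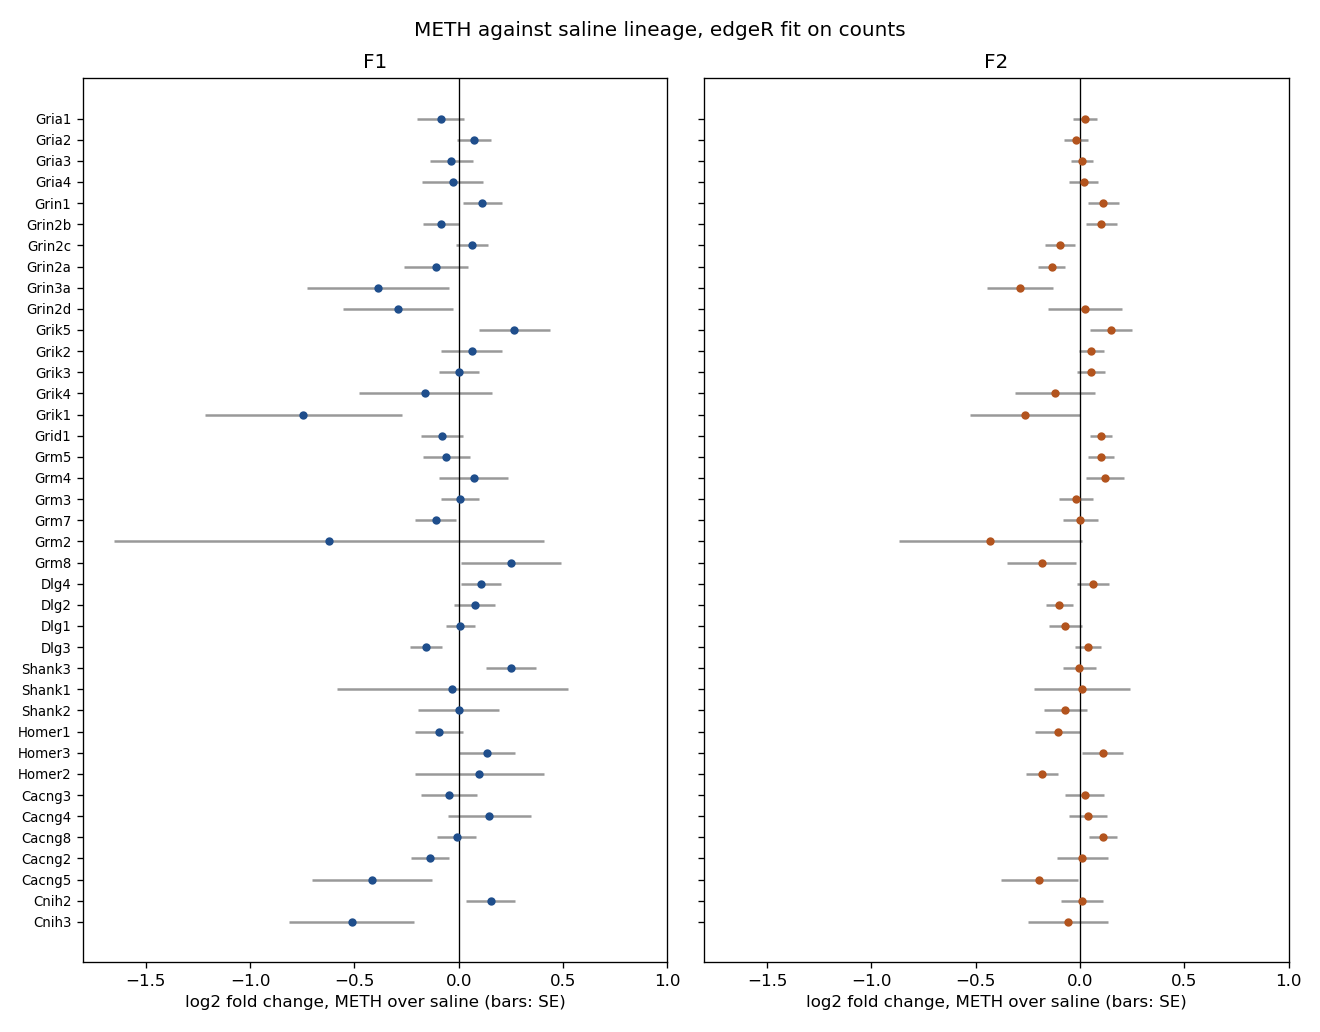
Log2 fold change of METH over saline for each of the 39 genes in F1 (left) and F2 (right), from the edgeR fit on counts, with the standard error as bars. Most values lie near 0, and the widest bars belong to Grm2 and Shank1 in F1, with standard errors of 1.03 and 0.555.

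In F2 the set again held no gene past the adjusted threshold (smallest adjusted p 0.960), and of all 18093 genes tested 0% passed. Homer2, a scaffold that ties metabotropic receptors to intracellular calcium stores, was the 1 gene at an unadjusted p under 0.05, where 4.77% of all genes were. Below 0 lay 17 of the 39 genes and above 0 lay 22, with 50.5% of all genes below 0, and the median was 0.01 against -0.0020 over all genes. No gene had all METH libraries above all saline libraries (1.34% of all genes), and 1, Homer2, had all below (1.20% of all genes).

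Homer2 (chromosome 7, 81600481 to 81706925, minus strand) read 22.9, 21.6, 25 and 22.6 CPM in F2 saline replicates 1 to 4 and 18.4, 21.3, 21.1 and 20.4 in F2 METH replicates 1 to 4. The 4 METH values lay below the 4 saline values, with a narrow gap between METH replicate 2 and saline replicate 2, and the log2 fold change was -0.18 (SE 0.0780, adjusted p = 0.960). On TPM the groups overlapped, with METH replicate 3 at 5.35 and saline replicate 2 at 5.17, and the unadjusted p was under 0.05 in 9 of 19 other settings. In F1 the same gene was at 0.10 (SE 0.309), with 21.9, 16.8, 28.8 and 13 CPM in saline and 14.5, 19.3 and 30.9 in METH. Its F2 value was -0.19 with the cortical marker mean as a covariate and -0.21 without the libraries high in Slc17a7.

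The NMDA receptor subunits Grin2a and Grin3a lay below 0 in F2. Grin2a read 105, 118, 114 and 108 CPM in saline and 100.2, 101, 93.8 and 110.2 in METH (log2 fold change -0.14, SE 0.0655), and METH replicate 4 lay inside the saline range. Grin3a, whose product lowers calcium entry through NMDA receptors, read 21, 17, 23.4 and 31.7 CPM in saline and 17.8, 19.3, 18.5 and 20.7 in METH (log2 fold change -0.29, SE 0.157). All 4 METH values of Grin3a lay inside the saline range, whose highest library was saline replicate 4, the F2 library highest in Slc17a7.

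The other 3 genes with the smallest p in F2 lay above 0. Grid1 read 94.3, 99.5, 94.7 and 90.4 CPM in saline and 105, 101, 99.1 and 101 in METH (log2 fold change 0.10, SE 0.0531). Cacng8 (TARP gamma-8) read 63.6, 67.7, 61.7 and 70.4 CPM in saline and 71.1, 71.6, 65.7 and 75.4 in METH (log2 fold change 0.11, SE 0.0664). Grm5 read 365, 397, 374 and 399 CPM in saline and 442, 383, 399 and 420.3 in METH (log2 fold change 0.10, SE 0.0624). In each of the 3, at least 1 METH library lay within the saline range. The 4 AMPA receptor genes stood between -0.02 (Gria2, SE 0.0558) and 0.03 (Gria1, SE 0.0579), and the widest value of the set was that of Grm2, -0.43 (SE 0.438), which turned to 0.11 without F2 saline replicate 4. The F2 marker lists stood at a median of 0.0049 for cortical excitatory, 0.06 for spiny projection neuron, -0.18 for astrocyte and -0.14 for oligodendrocyte genes, the last 2 lists with 10 of 10 below 0. Of the microglia markers 8 of 8 were below 0 (median -0.25), with sums of 411 to 575 TPM in F2 saline and 393 to 467 in F2 METH. Below 0 were also 10 of 10 interneuron (median -0.08), 9 of 10 thalamic (-0.15) and 7 of 8 oligodendrocyte precursor markers (-0.15). In F1 these 3 lists had 8 of 10 (-0.10), 5 of 10 (0.05) and 2 of 8 (0.04) below 0. At an unadjusted p under 0.05 in F2 were 4 astrocyte and 2 microglia markers. The thalamic, oligodendrocyte precursor and endothelial lists had 1 each, and the cortical, spiny projection neuron, oligodendrocyte and interneuron lists 0. Of all genes 4.77% were. Astrocyte markers summed to 2158.5 to 2605 TPM in F2 saline and 1987 to 2316 in F2 METH, and oligodendrocyte markers to 7325 to 13168 and 7791 to 10316; the part of these cells in the values of the set was not tested.

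**Figure D3:**
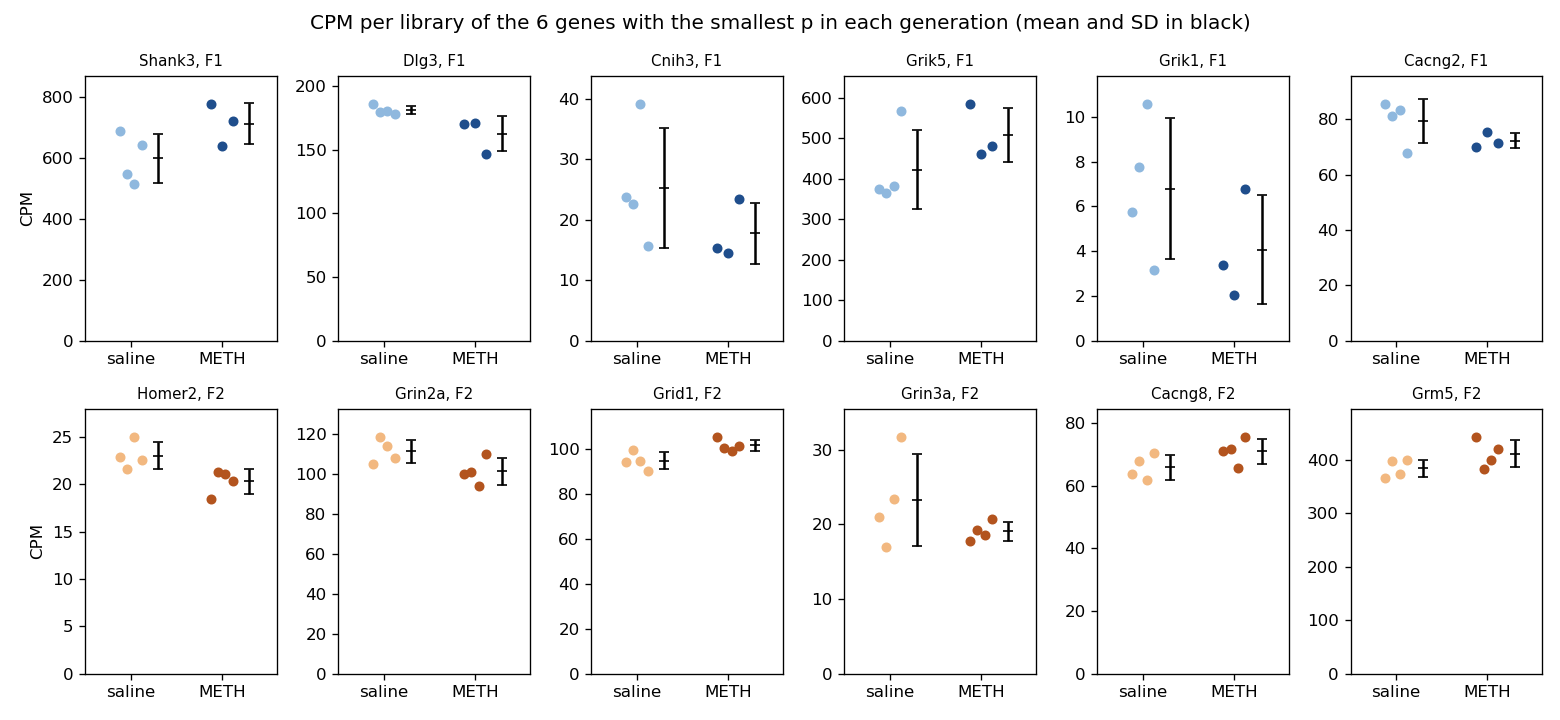
CPM per library in saline and METH mice for the 6 genes with the smallest edgeR p in F1 (top row) and in F2 (bottom row), with the group mean and SD in black and every axis starting at 0. Dlg3 in F1 and Homer2 in F2 are the genes whose groups do not overlap; the other 10 panels overlap.

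The difference between generations, F2 effect minus F1 effect over the 15 libraries, was tested for the same genes. None passed (smallest adjusted p 1.00), as against 0.00518% of all 19308 genes (1 gene), and 0 lay under an unadjusted p of 0.05, where 4.88% of all genes did. Of the 39, 18 lay below 0 (50.1% of all genes did) and 21 above, with a median of 0.03 against -0.00057 over all genes. The values ran from -0.45 (Grm8) to 0.47 (Grik1).

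The smallest p belonged to Dlg3, at a difference of 0.18 (SE 0.0931). Beside the F1 values given above, Dlg3 read 169, 197, 182 and 171 CPM in F2 saline and 186, 182, 186 and 185 in F2 METH, so the F2 METH libraries lay inside the saline range. Shank3 followed with -0.26 (SE 0.145); in F2 it read 829.6, 898, 766 and 708 CPM in saline and 728, 804, 847 and 814 in METH, with wide overlap.

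NMDA subunits and the scaffold Dlg2 (PSD-93) made up most of the rest. Grin2c read 116, 111, 103 and 115 CPM in F1 saline, 109.7, 112 and 126 in F1 METH, 116, 106, 104 and 107 in F2 saline and 94.6, 93.2, 113 and 103 in F2 METH (difference -0.17, SE 0.102). Grin2b read 334, 306, 359.6 and 343 CPM in F1 saline, 307, 342 and 301 in F1 METH, 402, 471, 382 and 422 in F2 saline and 426, 452, 478 and 443 in F2 METH (difference 0.18, SE 0.111). Dlg2 read 509, 412, 440.2 and 434 CPM in F1 saline, 463, 437 and 519 in F1 METH, 573, 612, 569 and 509.7 in F2 saline and 501, 542, 542 and 528 in F2 METH (difference -0.19, SE 0.116). For all 3 the METH and saline ranges overlapped within each generation. Grin2c was the 1 gene of the set whose CPM and TPM hardly moved together over the libraries (r = 0.0602 on the log2 scale), and its difference was -0.04 without the libraries high in Slc17a7. Grid1, the sixth, read 87.1, 92.0, 75.1 and 85.9 CPM in F1 saline and 87.6, 84.0 and 69.7 in F1 METH (difference 0.17, SE 0.110).

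Ratios between genes of a class were set within each library, which removes library scaling. Of 6 such ratios, chosen after earlier results of these data were known, 2 had no overlap between METH and saline in F2 and 0 in F1, on TPM and on counts alike; they were given no test. Over all 69 pairs of genes within a class, 1.45% of the TPM ratios had no overlap in F1 and 5.8% in F2, and 1.45% and 2.9% of the count ratios. The pairs with no overlap in F2 numbered 4 on TPM and 2 on counts, so the 6 ratios, having been chosen, are no sample of the pairs. The ratio of Grin2b to Grin2a TPM was 2.17 to 2.58 in F2 saline and 2.62 to 3.38 in F2 METH, against 1.83 to 2.56 and 1.91 to 2.62 in F1. The ratio of Dlg4 to Dlg2 was 4.18 to 4.43 in F2 saline and 4.73 to 5.10 in F2 METH, against 4.81 to 5.24 and 4.75 to 5.30 in F1. The ratio of Gria2 to Gria1, which bears on calcium-permeable AMPA receptors, was 0.881 to 0.988 in F2 saline and 0.833 to 0.993 in F2 METH.

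Genes that work with these receptors were counted by list, and none passed the adjusted threshold in any comparison. Beside the counts of each list below, 50.9% of all genes lay below 0 in F1 and 50.5% in F2. At an unadjusted p under 0.05 were 4.18% of all genes in F1 and 4.77% in F2. Of 24 other postsynaptic density genes, 16 lay below 0 in F1 and 12 in F2 (medians -0.05 and 0.00041), with 0 and 1 at an unadjusted p under 0.05. The smallest p in F1 belonged to Mpp3 (-0.12), Nos1 (-0.16) and Dlgap3 (0.17), and in F2 to Camk2b, a subunit of the calcium/calmodulin kinase (0.14, SE 0.0637), Ptk2b (0.11) and Akap5 (0.11). Among 22 receptor auxiliary and trafficking genes, 16 lay below 0 in F1 and 5 in F2 (medians -0.04 and 0.06), with 1 and 2 at an unadjusted p under 0.05. Grip1, which binds AMPA receptor tails, was at -0.23 (SE 0.0962) in F1, followed by Nsf (-0.24) and Sorcs2 (0.22). In F2, Gsg1l, an AMPA receptor auxiliary subunit, was at 0.25 (SE 0.0685), Frrs1l at -0.22 and Porcn at 0.14. The difference between generations was 0.30 for Grip1 and 0.19 for Gsg1l.

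Of 18 synaptic adhesion genes, 13 lay below 0 in F1 and 9 in F2 (medians -0.06 and 0.0079). Of these, Lrrtm4, a postsynaptic partner of neurexins, was the 1 gene at an unadjusted p under 0.05 in F1 (0.20, SE 0.0864), and 0 were in F2. Next came Ephb2 (-0.46) and Lrfn1 (-0.40) in F1, and Nlgn2 (0.14) and Ephb2 (-0.22) in F2. Of 15 metabotropic signalling genes, 11 lay below 0 in F1 and 6 in F2 (medians -0.03 and 0.01), with 2 and 1 at an unadjusted p under 0.05. Prkca, a protein kinase C downstream of Gq, was at -0.31 (SE 0.0887) in F1 and 0.07 (SE 0.0568) in F2, with a difference of 0.37 (SE 0.0990, adjusted p = 0.854). Gnaq, the Gq alpha subunit, was at -0.19 and Gnai1 at -0.22 in F1, and Prkcb was at 0.08 in F2.

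Of 12 glutamate transport and metabolism genes tested, 7 lay below 0 in F1 and 8 in F2 (medians -0.05 and -0.08), with 2 and 1 at an unadjusted p under 0.05. The glial transporter Slc1a2 was at 0.40 (SE 0.159) in F1, the neuronal transporter Slc1a1 at 0.21 and Slc38a1 at -0.19. In F2 the other glial transporter, Slc1a3, was at -0.18 (SE 0.0677), Slc17a6 at -1.35 (SE 0.724) and Glul at -0.17. The difference between generations was -0.52 for Slc1a2 and -0.35 for Slc1a3, neither past the adjusted threshold (adjusted p 0.909 and 0.937). Astrocyte markers as a list, which include Slc1a2 and Slc1a3, stood at a median of 0.18 in F1 (8 of 10 above 0) and -0.18 in F2 (10 of 10 below 0); their part in the transporter values was not tested.

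Some genes of the set varied widely between libraries, also within a group: Grm2 ran from 0.676 to 16.1 TPM in F1 saline. The coefficient of variation of TPM was taken over all 15 libraries, so it includes any differences between groups and generations. It had a median of 15.9% and exceeded 30% for 6 genes: Grm2 (116%), Shank1 (48.0%), Grik1 (48.0%), Cnih3 (41.0%), Grik4 (31.8%) and Grin3a (31.1%). All 6 are among the genes that rose with the cortical markers. The mean log2 CPM of 17 cortical excitatory markers ran from 2.89 to 5.93 over the 15 libraries, without separate clusters, and overlapped between METH and saline in F1 (3.49 to 5.55 and 2.89 to 5.93) and in F2 (3.01 to 4.56 and 3.01 to 4.80). Across the libraries, 9 of the 39 genes rose with this mean and 3 fell (Pearson's r, permutation test with 100000 draws, Benjamini-Hochberg over the 39 relations). The other 27 did not pass. Genes outside the set were not correlated with the mean, so the share of all genes that follow it is not known. Spearman's rho passed for 10 genes, and 9 passed by both measures.

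Grm2, the presynaptic receptor that restrains glutamate release, followed the cortical markers most closely, with r = 0.956 (p = 1e-05, adjusted p = 0.000195) and rho = 0.964 (p = 1e-05, adjusted p = 0.00039), where 1e-05 is the smallest p these draws can give. Its CPM was 5.82, 4.21, 21.1 and 0.98 in F1 saline, 2.03, 1.04 and 12.7 in F1 METH, 1.73, 1.45, 3.24 and 6.16 in F2 saline and 1.36, 3.54, 2.37 and 2.03 in F2 METH. The highest values fell in F1 saline replicate 3 and F1 METH replicate 3, the libraries with the highest cortical marker means, and without those 2 libraries r was 0.915. Within generations r was 0.975 in F1 (exact permutation p = 0.000397, n = 7) and 0.927 in F2 (exact permutation p = 0.000397, n = 8).

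Shank1, a scaffold strong in cortex and hippocampus, gave r = 0.906 (p = 1e-05, adjusted p = 0.000195) and rho = 0.911 (p = 2e-05). It read 260.1, 189.5, 403 and 105 CPM in F1 saline, 125, 118 and 459 in F1 METH, 170.1, 163, 189.6 and 294 in F2 saline and 122, 245, 238 and 218 in F2 METH. Its close relative Shank3 did not rise with the markers (r = -0.436, p = 0.105; rho = -0.379, p = 0.166). The ratio of Shank3 to Shank1 TPM ran from 1.47 to 7.42, the largest range of the 6 ratios.

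Among receptor subunits, Grik1 (r = 0.837, p = 7e-05; rho = 0.864, p = 9e-05), Grik4 (r = 0.818, p = 0.0002; rho = 0.771, p = 0.00125), Gria4 (r = 0.757, p = 0.0006; rho = 0.775, p = 0.00103) and Grin3a (r = 0.722, p = 0.0025; rho = 0.814, p = 0.00036) also rose with the cortical markers. Their adjusted p was 0.00091, 0.00156, 0.00334 and 0.0108 for r and 0.00117, 0.00609, 0.00574 and 0.00281 for rho. So did Cnih3 (r = 0.790, p = 0.00029, adjusted p = 0.00189; rho = 0.818, p = 0.00034, adjusted p = 0.00281). Without the 2 libraries named above, r was 0.827 for Shank1, 0.738 for Grik1, 0.644 for Grik4, 0.633 for Gria4, 0.659 for Grin3a and 0.607 for Cnih3. Homer2 (r = 0.663, adjusted p = 0.0247; rho = 0.568, adjusted p = 0.106) and Gria3 (r = 0.653, adjusted p = 0.0258; rho = 0.536, adjusted p = 0.138) passed by r and not by rho. Without the 2 libraries with the highest marker means, Homer2 was at r = 0.399 (permutation p = 0.176), so that its relation rests on those libraries. Gria3 was then at r = 0.537 (permutation p = 0.056), against 0.542 within F2, which holds neither library.

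The genes that fell were Cacng4 (r = -0.817, adjusted p = 0.00156; rho = -0.796, adjusted p = 0.0052), Grm4 (r = -0.730, adjusted p = 0.00848; rho = -0.646, adjusted p = 0.046) and Gria1 (r = -0.630, adjusted p = 0.0321; rho = -0.432, adjusted p = 0.309). Cacng4 read 141, 128, 98.0 and 178 CPM in F1 saline, 159, 174 and 119 in F1 METH, 155, 153, 135 and 119 in F2 saline and 145, 145, 131 and 157 in F2 METH, lowest in F1 saline replicate 3, the library with the highest cortical marker mean. Without the 2 libraries named above, r was -0.651 for Cacng4, -0.380 for Grm4 and -0.218 for Gria1, so that the relations of Grm4 and Gria1 rest on those libraries. All 12 genes kept the sign of r in F1, in F2, on TPM and against Slc17a7 alone. Gria1, Gria3 and Homer2 did not pass against Slc17a7 alone, and Gria1, Gria3 and Grm4 did not pass on TPM. The draws behind the adjusted p mixed F1 and F2 libraries. Within F2 the exact permutation p, unadjusted, was under 0.05 only for Grm2, Shank1, Grik1, Grik4 and Gria4 among the 12. There r was weakest for Gria1 (-0.200), Grm4 (-0.207) and Homer2 (0.291).

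Of the 39 genes, 17 gave r of opposite sign in F1 and F2, and 3 of these were at an unadjusted p under 0.05 in 1 generation; the differences were not tested. For Grm3, r was 0.667 in F1 (exact permutation p = 0.103, n = 7) and -0.943 in F2 (exact permutation p = 0.000570, n = 8), and -0.303 over the 15 libraries. Cacng2 stood at 0.628 in F1 (exact permutation p = 0.132) and -0.784 in F2 (exact permutation p = 0.0195), and Grik3 at 0.836 (exact permutation p = 0.0143) and -0.192 (exact permutation p = 0.631). The p-values within generations are not adjusted for the 39 genes. The relations are across libraries and share each library's total, and the part of cortical tissue in them was not tested.

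**Figure D4:**
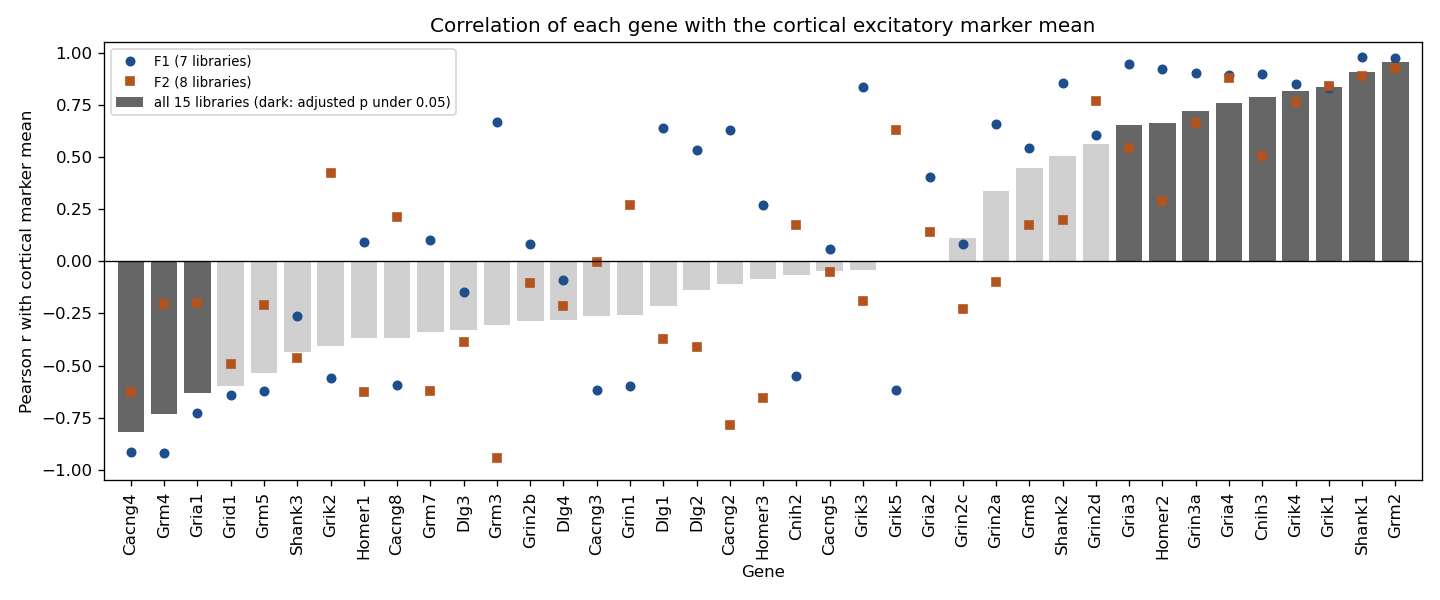
Pearson's r of each of the 39 genes (log2 CPM) with the mean of 17 cortical excitatory markers over the 15 libraries, ordered by r, with the values within F1 and within F2. Grm2 and Shank1 have the highest r in both generations, Cacng4 has the lowest over the 15 libraries, and within F2 Grm3 is lowest.

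**Figure D5:**
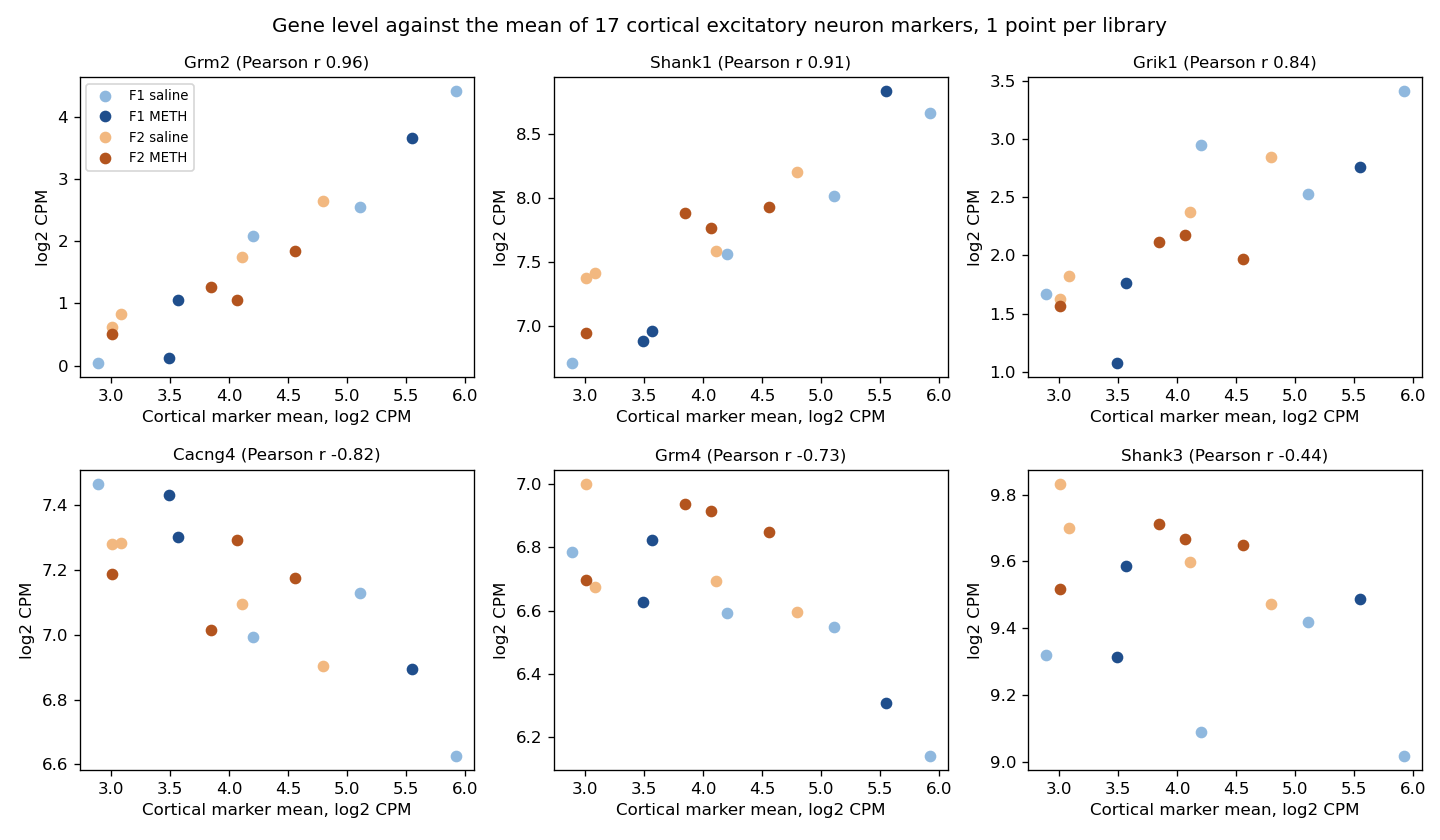
Log2 CPM of 6 genes against the mean log2 CPM of the cortical excitatory markers, 1 point per library, coloured by group. Grm2, Shank1 and Grik1 rise along the axis, Cacng4 and Grm4 fall, and Shank3 shows no clear course; METH and saline libraries are mixed along each axis.

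Promoter sequence was at hand for 27 of the 39 genes in RefSeq windows of GRCm38.p6. Shown are the 250 bases before the start of Grm2 and Gria4. These genes rose with the cortical markers, also at an unadjusted permutation p under 0.05 without the libraries highest in those markers. Each has 1 window, which lies outside the span of the gene itself. Bases after the start were found in an annotated transcript for Gria4 but not for Grm2, so the Grm2 start is less certain. Both lie on the minus strand, Grm2 at chr9:106656110-106656359 and Gria4 at chr9:4796235-4796484, and capitals mark the GC box GGGCGG, searched on both strands.
Grm2: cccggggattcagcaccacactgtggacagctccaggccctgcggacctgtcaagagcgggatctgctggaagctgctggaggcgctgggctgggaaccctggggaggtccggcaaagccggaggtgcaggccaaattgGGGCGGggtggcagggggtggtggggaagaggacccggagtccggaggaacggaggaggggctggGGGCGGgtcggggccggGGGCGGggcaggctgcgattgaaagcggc
Gria4: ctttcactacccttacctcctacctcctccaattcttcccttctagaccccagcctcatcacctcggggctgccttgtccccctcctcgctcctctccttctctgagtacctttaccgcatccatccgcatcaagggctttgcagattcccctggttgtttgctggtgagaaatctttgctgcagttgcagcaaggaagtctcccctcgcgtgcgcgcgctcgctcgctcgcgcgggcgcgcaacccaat
The Grm2 window holds 3 GC boxes and 16 CpG dinucleotides and is 71.2% G or C, and the Gria4 window holds 0 GC boxes and 16 CpG dinucleotides and is 58.8% G or C. A GC box is present in 32.7% of the 32851 windows of this length and in 19 of the 41 windows of the set's genes (46.3%). The E box CANNTG, also searched on both strands and able to share bases with a GC box, occurs 0 times in the Grm2 window and 1 time in the Gria4 window, and is present in 66.2% of all windows and 56.1% of the set's. The TATA box TATAAA is in 12.4% of all windows and in neither of these. The median CpG count was 11 over the set's windows and 6 over all windows.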

How the data were processed

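RNA of 15 striatal libraries was sequenced, and sample titles gave the group and replicate number. The submitters' processing notes list build mm10 and StringTie 2.1.3b, HISAT2 2.1.0, Trimmomatic and bcl2fastq 2.20.0. Settings, strandedness and the counting step: not given in the sources used here. Each generation has its own deposited table of counts, TPM and FPKM. Since the deposited counts were whole and their totals differed, they were treated as raw. TPM and FPKM were computed by the authors, as named per the file headers, and TPM served to compare levels between genes. The name of each of the 45 value columns gave its sample, and 0 columns were left unused.

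Counts were tested over all genes with edgeR 4.0.16 in R 4.3.3 (quasi-likelihood fit and test, TMM scaling, filterByExpr at a count of 10, p adjusted by Benjamini-Hochberg, called under 0.05). F1 and F2 were fitted apart, and the change of the effect from F1 to F2 was an interaction term over 15 libraries. CPM used TMM-scaled totals. Correlations used log2 CPM (prior count 2), two-sided, with scipy 1.17.1 under Python 3.11.15. The spread of replicates exceeded sampling noise in every pair (chi-square per degree of freedom 16.1 to 65.8), so each library counted as 1 replicate. The edgeR tests were checked on simulated data. The planted changes were larger than any log2 fold change of the set, so the check does not bear on changes of that size. Gene positions are 1-based, from RefSeq on GRCm38.p6 (the build mm10 stands for), which placed 39 of 39 genes; 20 share exon bases with another gene.

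The genes, marker lists and pathway lists were chosen with earlier results of these data known. The rule for named genes printed every library's value for the gene with the highest mean TPM in each class and for the 6 smallest p in each comparison, and the 3 smallest p per pathway list in F1 and F2. The alternatives tried were size factors or the Wald test of DESeq2 1.42.0, voom or trend (log2 of TPM + 1 or TPM + 0.1) of limma 3.58.1, other filters, 1 fit of all libraries, a replicate block, a cortical marker covariate, and leaving out libraries. Figures used matplotlib 3.10.9. Some genes of the pathway lists are not reported here by name.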

Additional observations from a re-analysis of the deposited data

Results flagged for a closer look

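In groups of 4 libraries, a highest or lowest value was set apart when its gap to the nearest other, divided by the group's range, exceeded Dixon's critical value. Of 117 groups tested (39 genes in 3 groups of 4), 5 did, and chance sets apart about 1 in 20. Grik5 did so in both saline groups: F1 saline replicate 4 read 567 CPM where the others read 364 to 383, and F2 saline replicate 1 read 299.9 CPM where the others read 361 to 366. Grin1 read 774 CPM in F1 saline replicate 4, against 653 to 673 in the other 3 libraries. Homer3 read 6.89 CPM in F1 saline replicate 2, against 8.72 to 8.78. Grin2d read 18.1 CPM in F2 saline replicate 4, against 11.9 to 12.3, and that library had the highest Slc17a7 of F2 (182 CPM).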

How the results depend on the processing

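No alternative called a gene of the set: over 2457 values of single genes under the alternatives, 0 passed the adjusted threshold and 262 changed sign against an uncalled value. Over all genes, edgeR called 0 in F1, and the other settings called 11 (DESeq2 Wald test), 3 (limma-voom), 1 (TPM + 1), 1 (TPM + 0.1), 1 (without libraries with Slc17a7 above 100 CPM), 1 (1 fit of all 15 libraries) and 0 to 2 (leaving out each library). In F2 edgeR called 0, against 7 (DESeq2 Wald test), 1 (limma-voom), 1 (without libraries high in Slc17a7) and 0 to 1 (leaving out each library). For the difference edgeR called 1, against 7 (DESeq2 Wald test), 0 (limma-voom, a mean CPM of at least 1, TPM + 1, TPM + 0.1, the cortical covariate, and without libraries high in Slc17a7) and 0 to 2 (leaving out each library). The cause of these shifts was not tested. Replicate numbers were not taken as pairs in the main fits. Same-numbered deviations correlated at -0.03, 0.06 and 0.40 in F1, and at -0.06 to 0.04 in F2. The 0.40 was the highest of all F1 pairs and joins the libraries with the highest cortical marker means. Whether the numbers pair the samples was not tested. With the replicate block the difference had 0 calls, by number or by animal code, and in F1 11 genes of the set reached an unadjusted p under 0.05 (smallest adjusted p 0.178). Without F1 saline replicate 4, 6 genes of the set did, against 0 with all libraries. In F1 the cortical covariate gave 3 (Grik1, Dlg3, Cnih3), 1 fit of all libraries 2 (Dlg3, Shank3), leaving out METH replicate 3 gave 2 (Grik1, Cnih3), TPM 1 (Dlg3), and the DESeq2 Wald test or leaving out saline replicate 1 or METH replicate 2 gave 1 (Shank3). In F2 the settings gave 0 to 4 and for the difference 0 to 3. The share of all genes under that p was not counted for these settings. Whether the counts are particular to the set is therefore not known. Against Slc17a7 alone 9 genes of the set passed, and against the cortical marker mean on TPM 10 did, where the main setting had 12. Since Gria1, Gria3 and Grm4 were lost on TPM, the 10 are not all among the 12. For the genes lost, r was -0.548 (Gria1), 0.605 (Gria3) and 0.589 (Homer2) on Slc17a7 alone. On TPM it was -0.378 (Gria1), 0.486 (Gria3) and -0.473 (Grm4). In TPM, Grm4 and not Homer2 was under an unadjusted p of 0.05 in F2. In CPM, which are not per length, class shares moved to 31.2% (Gria1), 53.3% (Grin1), 54.3% (Grik5), 56.3% (Grm5), 57.5% (Dlg4), 20.5% (Cacng3) and 90.2% (Cnih2), and Gria2 and Cacng4 led their classes in place of Gria1 and Cacng3. Low counts limit Grm2, Grik1 and Grm8, at 37, 79 and 108 counts in their lowest libraries.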
